A study of Mus musculus with 4 samples.

Results

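Solute carriers (Slc genes) are the membrane proteins that move sugars, amino acids, ions, metals, nucleotides and lipids across the plasma membrane and the membranes of organelles. The genes described here are those whose name begins with Slc and a digit and whose expression, summed over transcripts and averaged over a genotype's libraries, came to 1 FPKM or more in wild type or in Mif KO. FPKM counts sequenced fragments per kilobase of transcript, scaled to the size of the library, so levels can be compared between genes per length. Of 377 such Slc genes among the 47729 genes of the deposited table, 130 met the rule, 242 stayed under the level and 121 of those were listed at 0 in every library. The glucose carriers Slc2a1, Slc2a3 and Slc2a6, the lactate carriers Slc16a1 and Slc16a3 and the red cell anion exchanger Slc4a1 were left out by the rule, and 5 of these 6 reached the level. Because the rule uses the expression values, the levels below are a description.

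The study compared neutrophils of wild-type and Mif KO mice, Mif being the gene of the cytokine macrophage migration inhibitory factor. Both genotypes were on the BALB/c SKG background, a strain with a mutation in the T cell kinase Zap70 that develops arthritis. Both received curdlan, a beta-glucan, 8 weeks before sampling. Neutrophils were sorted from bone marrow and spleen, and total RNA was sequenced after removal of ribosomal RNA. The labels give 2 wild-type and 2 Mif KO libraries, no age, and no statement that the libraries of a genotype came from separate animals or pools, so each p-value reflects only how far these libraries differ, which may be technical.

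Transporters are grouped by what they carry. A neutrophil takes up cystine and glutamine for glutathione and fuel, holds high taurine, keeps iron, zinc, copper and manganese away from microbes, and builds fucosylated and sialylated surface glycans from nucleotide sugars imported into the Golgi. Its few mitochondria exchange metabolites with the cytosol through the Slc25 family of inner membrane carriers. Of the 130 genes, 29 were Slc25 carriers, 21 carried amino acids or peptides, 18 metals or heme, 17 nucleotide sugars and related cargo of the secretory pathway (Slc35), and 13 inorganic ions. Carboxylates and other organic ions accounted for 8, sugars and sugar phosphates for 8, vitamins, choline and lipids for 7, and nucleosides or nucleobases for 4. The remaining 5 bear an Slc name but are not transporters.

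Sequences of 2 regulatory sites are given because they belong to the most abundant gene of the set and to Slc7a11, whose difference between genotypes was the largest with all 4 libraries but rested on wild-type library 2. The first is the iron-responsive element of Slc40a1 (ferroportin, the iron exporter), a hairpin in the 5′ untranslated region through which iron regulatory proteins hold back translation when iron is low. It lies on the minus strand of GRCm38 at chr1:45925471-45925487, bases 96 to 112 of the 319-base 5′ untranslated region of transcript ENSMUST00000027137, and the capitals mark the 6-base loop between the stem arms.
Slc40a1 iron-responsive element: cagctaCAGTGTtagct
The second is the stretch of 120 bases just before the RefSeq start of Slc7a11 (the cystine and glutamate exchanger), on the minus strand of GRCm38.p6 at chr3:50443614-50443733. Capitals mark the 2 matches of TGATGNAA, the composite site read by C/EBP and ATF4, which is the factor of the amino acid response.
Slc7a11 upstream: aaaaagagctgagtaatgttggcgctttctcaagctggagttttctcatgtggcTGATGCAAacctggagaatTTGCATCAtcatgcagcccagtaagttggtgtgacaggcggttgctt
The hairpin was searched as a C, a 5-base arm, CAGTGN and a pairing 5-base arm, with G-T pairs allowed, in the transcript strand only. It was found in a 5′ untranslated region of 18 of 8438 tested genes that have one annotated (0.213%), and Slc40a1 was the only solute carrier among them. Matches in a 3′ untranslated region were present in 3 further members, Slc6a6, Slc35e1 and Slc10a7. TGATGNAA, searched on both strands of the RefSeq windows from 250 bases before to 50 after each start, was present in 3.97% of all 32851 windows, in 2.24% of the 8589 windows of tested genes and in 5 of the 132 windows of the 99 matched members (3.79%). At least 2 matches were present in 0.07% of all windows and in 2 member windows, 1 of Slc7a11 and 1 of Slc7a7. Each match is a description of the letters in these windows.

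Mif itself was listed at 0 in both Mif KO libraries, beside 0.882 and 2.88 FPKM in wild type. Low FPKM values fell on steps whose size puts the Mif KO libraries 4.83 and 5.28 times as deep as the shallower wild-type library, and the other wild-type library at 1.23 times. The genotypes were also run in different lanes, so genotype, depth and lane cannot be told apart. The 12 neutrophil markers summed to between 116610 and 122738 FPKM in every library, a sum made mostly of S100a8 and S100a9. Of the 12, 1 was higher past the threshold: Ly6g stood at 519 and 491 against 918 and 936 FPKM (log2 difference 0.88, SE 0.07, limma adjusted p = 0.0364). At unadjusted p under 0.05, 5 had higher and 0 lower values (41.7% and 0%, beside 8.35% and 9.56% of all genes tested), Mmp9, Mmp8, Retnlg and Ngp being the others. S100a8 stood at 41370 and 38838 against 35980 and 36080 FPKM and S100a9 at 38906 and 38638 against 34886 and 35544, both with lower Mif KO values and neither past the test. Markers of B and plasma cells summed to 196 and 159 FPKM in wild type against 35.7 and 41.3 in Mif KO, with 3 of 3 tested markers lower past the threshold, while Cd79a and Ms4a1 stayed under 0.2 FPKM. Macrophage and monocyte markers summed to 33.9 and 49.6 against 41.5 and 46.5 FPKM, and 0 of 7 tested passed. Erythroid markers summed to 5.50 in wild-type library 1 and to 21.5, 18.3 and 17.9 FPKM in the other 3 libraries, with 0 of 6 tested past the threshold. Among T cell markers Cd3d alone was tested, at 62.0 and 72.2 against 63.9 and 64.4 FPKM (1 gene, 0 past the threshold). Trac was listed at 0 in all libraries, and the other T cell markers stayed at or under 0.295 FPKM. Mast cell markers Cpa3 and Fcer1a were at 0, and the single tested marker of eosinophils, basophils and mast cells (Siglecf) and of platelets (Gp1bb) did not pass.

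The solute carriers ranged from 1.00 to 142 FPKM as a mean over the 4 libraries, with a median of 5.14. Expression was concentrated in few genes: 13 reached 50 FPKM, 28 reached 20, 42 reached 10 and 63 stayed under 5, and the 10 highest held 40.5% of the summed FPKM of all 130. The set made up 0.363% and 0.399% of all FPKM in wild type against 0.344% and 0.365% in Mif KO, with overlapping groups. Among the 10 highest were Slc40a1, the scaffold gene Slc9a3r1, the fatty acid carrier Slc27a4, the taurine carrier Slc6a6, the mitochondrial carriers Slc25a24 and Slc25a5, the phagosomal metal carrier Slc11a1, the copper carrier homologue Slc31a2 and the choline carrier Slc44a2. Of all 130, 127 reached 1 FPKM in both genotypes, Slc27a3 and Slc6a13 in wild type only and Slc25a22 in Mif KO only. The members nearest the level were Slc25a22, with group means of 0.960 and 1.05 FPKM, and Slc6a13, with 1.17 and 0.908. Just outside stood Slc16a7, with 0.867 and 0.932, and Slc26a6, with 0.879 and 0.828.

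**Figure D1:**
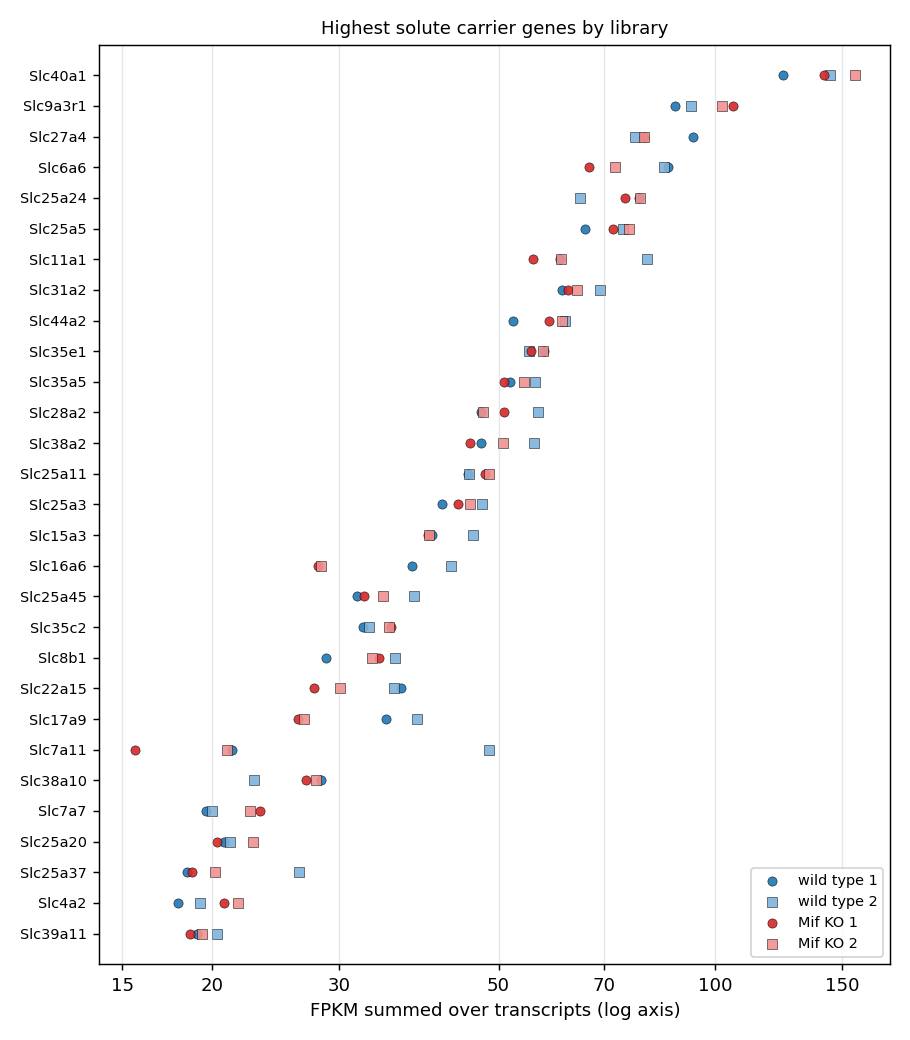
FPKM per library, on a log axis, of 29 of the 30 solute carrier genes with the highest mean level; each row is a gene and each point a library. Slc40a1 stands highest at 124 to 156 FPKM, and Slc7a11 has the widest spread, from 15.6 to 48.4 FPKM.

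No solute carrier passed the test between genotypes. The difference was taken as Mif KO minus wild type on log2(FPKM + 1), a scale that understates changes of low genes, and tested with limma over all 10221 genes that reached the same level, with Benjamini-Hochberg adjustment and a threshold of 0.05. The count was 0 of 130, against 35 of all genes tested (0.342%), and the lowest adjusted p of the set was 0.124 for Slc16a6. At an unadjusted p under 0.05, 10 members had higher and 10 lower values in Mif KO, or 7.69% each way, beside 8.35% and 9.56% of all genes tested. Among protein-coding genes tested the shares were 9.46% higher and 4.08% lower. Both Mif KO libraries lay above both wild-type libraries in 36 of the 130 members, beside 29.6% of all genes tested, and below them in 25, beside 23.1%. The groups overlapped in 69. Beside all genes tested these counts lie near the background. Beside coding genes the share of lower values is larger, a difference that was not tested.

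Differences were small. The log2 difference was positive in 76 members and negative in 54, with a median of 0.03 beside 0.02 over all genes tested. Its size stayed under 0.1 in 52 members and exceeded 0.3 in 14 and 0.5 in 3. Wild-type libraries differed from each other by over 1.5-fold in 17 members and the Mif KO libraries in 0, beside 11.3% and 2.01% of all genes tested. The call of 0 rested on the spread between the wild-type libraries. Without wild-type library 1, 39 members and 2604 genes in all passed the same limma test, and without wild-type library 2, 34 members and 2846 genes, the remaining wild-type library then being assumed to vary like the Mif KO libraries. Leaving out either Mif KO library gave 0 members and 0 genes. In these bulk libraries fewer cells of a type and less RNA per cell cannot be told apart.

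**Figure D2:**
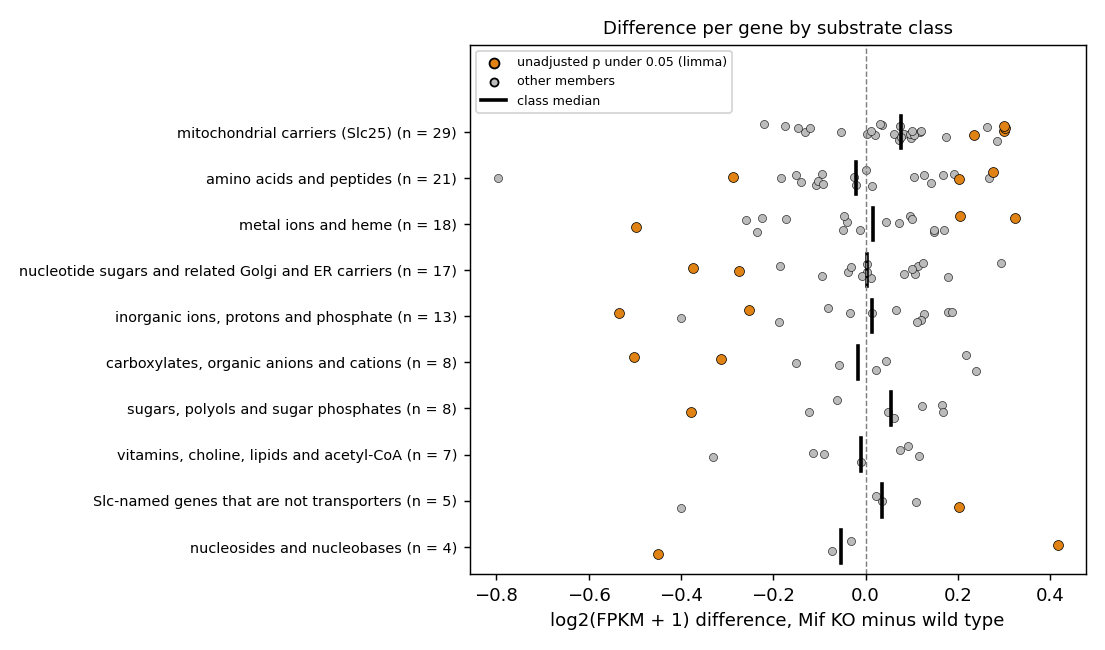
Log2 difference in FPKM + 1, Mif KO minus wild type, of each of the 130 genes (points) by substrate class, with class medians as bars and the 20 genes with an unadjusted limma p under 0.05 in orange. The mitochondrial carriers have the highest class median (0.08), and Slc7a11 lies farthest from 0 at -0.80.

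The metal carriers were led by an iron exporter, a phagosomal metal pump and a copper carrier homologue. Slc40a1 was the most abundant solute carrier of the set, with 124 and 144 FPKM in wild type against 141 and 156 in Mif KO. The groups overlapped, and the log2 difference was 0.15 (SE 0.11, limma adjusted p = 0.509). The transcript that carries the iron-responsive element printed above held 89.0% of the gene's FPKM, at 110.5 and 123 against 129 and 142. Macrophages and erythroid cells also express Slc40a1, wild-type library 1 was lowest both for it and for the sums of those markers, and the part of those cells in its level was not tested.

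Slc11a1 (Nramp1), which pumps divalent metals out of the phagosome, stood at 60.8 and 80.5 against 55.8 and 61.0 FPKM. Wild-type library 2 was high and the other 3 were close together (adjusted p = 0.430 by limma). Slc31a2, a homologue of the copper importer, stood at 61.3 and 69.2 against 62.4 and 64.3 FPKM, with both Mif KO values inside the wild-type range. The importer itself, Slc31a1, lies 62.3 kb from it on chromosome 4 and was several times lower, at 8.74 and 8.12 against 9.96 and 9.77 FPKM. Both of its Mif KO values were above both wild-type values (log2 difference 0.21, SE 0.08, limma adjusted p = 0.278).

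Slc48a1 (Hrg1), which moves heme from lysosomes into the cytosol, had the clearest higher values among the metal genes. It stood at 8.06 and 8.44 FPKM in wild type against 10.6 in both Mif KO libraries. The groups were apart, and the log2 difference was 0.32 (SE 0.07, limma adjusted p = 0.158). The gene of the heme transporter shares 29 exon bases with Hdac7 on the opposite strand.

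Zinc carriers of the Slc39 family bring zinc into the cytosol and those of the Slc30 family take it out. Slc39 genes were represented by 7 of 15 and Slc30 genes by 5 of 10, with median differences of -0.05 and -0.01. The highest were Slc39a11 (19.1 and 20.3 against 18.7 and 19.4 FPKM) and Slc39a1 (12.2 and 13.5 against 12.99 and 13.6 FPKM), both overlapping. Slc39a7 (Zip7), which releases zinc from the endoplasmic reticulum, had lower summed values, 13.5 and 16.7 against 10.7 and 10.0 FPKM (log2 difference -0.50, SE 0.12, limma adjusted p = 0.160). That difference turned with the transcript type and the readthrough gene described below. Among the exporters Slc30a9 was highest, at 9.09 and 9.66 against 8.45 and 9.64 FPKM, and Slc30a1, the plasma membrane exporter induced by zinc, stood at 3.94 and 2.57 against 3.49 and 3.34 FPKM. The other metal genes, Slc30a5, Slc30a6, Slc30a7, Slc39a3, Slc39a4, Slc39a9, Slc39a13 and the magnesium carrier Slc41a3, lay between 1.34 and 6.22 FPKM in every library.

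Of 16 tested genes of iron and zinc handling outside the Slc names, 0 passed the adjusted threshold. At unadjusted p under 0.05, 4 had higher and 0 lower values (25% and 0%). The shares were 8.35% and 9.56% of all genes and 9.46% and 4.08% of coding genes. The lowest p belonged to the iron chaperone gene Pcbp1 (44.5 and 47.0 against 55.5 and 54.6 FPKM, limma adjusted p = 0.176), followed by the heme oxygenase gene Hmox2 (19.4 and 18.5 against 22.3 and 23.5 FPKM, limma adjusted p = 0.191) and the transferrin receptor gene Tfrc (5.35 and 5.11 against 6.26 and 6.43 FPKM, limma adjusted p = 0.225). In all 3 genes both Mif KO libraries lay above both wild-type libraries.

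Amino acid carriers were led by Slc6a6, which concentrates taurine, the most plentiful free amino acid of neutrophils. It stood at 85.8 and 84.8 FPKM in wild type against 66.8 and 72.7 in Mif KO. The groups were apart by more than the spread within either (log2 difference -0.29, SE 0.08, limma adjusted p = 0.171). On its protein-coding transcripts alone the values were 61.2 and 61.7 against 54.7 and 58.3 FPKM, a log2 difference of -0.12.

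Slc7a11 imports cystine for glutathione synthesis and had the largest difference of the set with all 4 libraries. Its summed values were 21.3 and 48.4 FPKM in wild type against 15.6 and 20.99 in Mif KO. Wild-type library 2 was high and the other 3 were within 15.6 to 21.3, both Mif KO values being lower than both wild-type values by a narrow margin. The log2 difference was -0.80 with an SE of 0.40 (limma adjusted p = 0.373). Without wild-type library 2 it was -0.22, smaller than that of Slc12a5 or Slc16a6 without that library. Only 25.7% of its FPKM was on the protein-coding transcript, at 7.38 and 10.6 against 4.30 and 5.12 FPKM. That transcript's log2 difference was -0.79 (SE 0.18, limma adjusted p = 0.198). The rest lay on transcripts annotated as retained introns, mainly a single-exon one of 2677 bases at 12.3 and 36.1 against 10.9955 and 15.2 FPKM.

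The light chains Slc7a5, Slc7a7 and Slc7a11 reach the cell surface as pairs with the heavy chain Slc3a2 (Cd98). The heavy chain was steady, at 14.2 and 15.1 against 14.1 and 14.5 FPKM, while the 3 light chains summed to 45.4 and 71.2 against 42.4 and 47.1 FPKM. Slc7a7, which exchanges cationic for neutral amino acids, stood at 19.6 and 20.01 against 23.3 and 22.6 FPKM. Both Mif KO libraries were above both wild-type libraries, opposite to Slc7a11 (log2 difference 0.20, SE 0.07, limma adjusted p = 0.248). Slc7a5, the importer of large neutral amino acids, was low and overlapping, at 4.38 and 2.75 against 3.38 and 3.48 FPKM.

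Slc1a5, a glutamine carrier, stood at 2.39 and 2.53 FPKM in wild type against 3.18 and 3.20 in Mif KO (log2 difference 0.28, SE 0.09, limma adjusted p = 0.211). On coding transcripts its values were 0.798 and 1.60 against 2.73 and 2.79 FPKM, and its retained-intron transcripts went the other way, from 1.56 and 0.833 to 0.425 and 0.348. Slc38a2 (Snat2), a small neutral amino acid importer, was the second highest of the class at 47.2 and 56.0 against 45.6 and 50.7 FPKM, with overlapping groups. Its neighbour Slc38a1, 44.5 kb away on chromosome 15, stayed at or under 1.70 FPKM. The endolysosomal peptide and histidine carriers Slc15a3 (40.4 and 46.1 against 40.0 and 40.0 FPKM) and Slc15a4 (6.58 and 8.66 against 6.74 and 6.79 FPKM) did not pass. Slc38a9, the lysosomal arginine sensor of the mTORC1 pathway, stood near the level at 1.18 and 1.27 against 1.03 and 1.11 FPKM. Slc6a12 and Slc6a13, carriers of betaine and GABA whose genes lie 5.34 kb apart on chromosome 6, stood at 1.17 and 2.37 against 1.53 and 1.35, and at 1.05 and 1.28 against 0.807 and 1.01 FPKM. Apart from Slc38a10 (22.9 to 28.3 FPKM), the 8 other genes of the class, Slc7a1, Slc16a10, Slc36a1, Slc36a4, Slc38a1, Slc38a6, Slc38a7 and Slc43a2, lay between 0.910 and 4.93 FPKM in every library. Across the class of 21, 2 genes had higher (9.52%) and 1 lower values (4.76%) at unadjusted p under 0.05, beside 9.46% and 4.08% of coding genes, and the median difference was -0.02.

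Genes that read or answer amino acid supply were set beside the carriers. Of 22 tested genes of the mTORC1 amino acid sensing pathway 0 passed, and 0 had an unadjusted p under 0.05. Lowest were Lamtor5 (18.7 and 20.3 against 22.2 and 22.1 FPKM), Flcn (6.10 and 9.24 against 10.3 and 10.0) and Tsc2 (5.44 and 5.27 against 6.05 and 5.84). Of 13 tested genes of the amino acid response, Atf4 and its targets, 0 passed. At unadjusted p under 0.05, beside 9.46% higher and 4.08% lower coding genes and 8.35% and 9.56% of all genes, 2 were higher (15.4%) and 0 lower. These were the seryl-tRNA synthetase gene Sars (5.22 and 5.70 against 7.54 and 7.67 FPKM, limma adjusted p = 0.132) and the mTORC1 inhibitor gene Ddit4 (0.986 and 1.87 against 2.52 and 2.40 FPKM, limma adjusted p = 0.255), followed by Chac1 (0.690 and 0.820 against 1.06 and 1.13 FPKM). Atf4 itself stood at 42.0 and 56.0 against 43.7 and 44.3 FPKM. Wild-type library 2 was highest for Atf4, as it was for Slc7a11. Among the other tested genes of that list, Ddit3 and Cebpb were also highest in that library, and the rest were highest in a Mif KO library. A link between Atf4 and Slc7a11 was not tested.

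Mitochondrial carriers of the Slc25 family were the largest class, 29 of 48 genes in the table. At unadjusted p under 0.05, 4 had higher and 0 lower values in Mif KO (13.8% and 0% beside 9.46% and 4.08% of coding genes tested). The difference was positive in 23 of the 29 (79.3%, beside 60.9% of coding genes), with a median of 0.08 beside 0.04. The median of this class kept a positive sign under each of 14 other settings and libraries left out, between 0.01 and 0.12. That of each of the other 9 classes changed sign under at least 1, but those medians began nearer 0, between -0.05 and 0.06. All settings reuse the same 4 libraries, and the median over coding genes was not set beside each. The kept sign is therefore not read as a trait of the class. On protein-coding transcripts alone 19 of 26 tested were positive, beside 82 of all 125 members tested on them. At unadjusted p under 0.05, 4 were higher and 1 lower, beside 13.0% and 3.40% of all genes tested on coding transcripts. The shift was not particular to this class. Differences were positive in 68.8% of 16 other mitochondrial membrane protein genes (median 0.09) and in 83.3% of 12 ABC transporter genes (median 0.13). Among 31 carriers named outside the Slc scheme 58.1% were positive, with a median of 0.08. None of this was tested as a set.

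**Figure D3:**
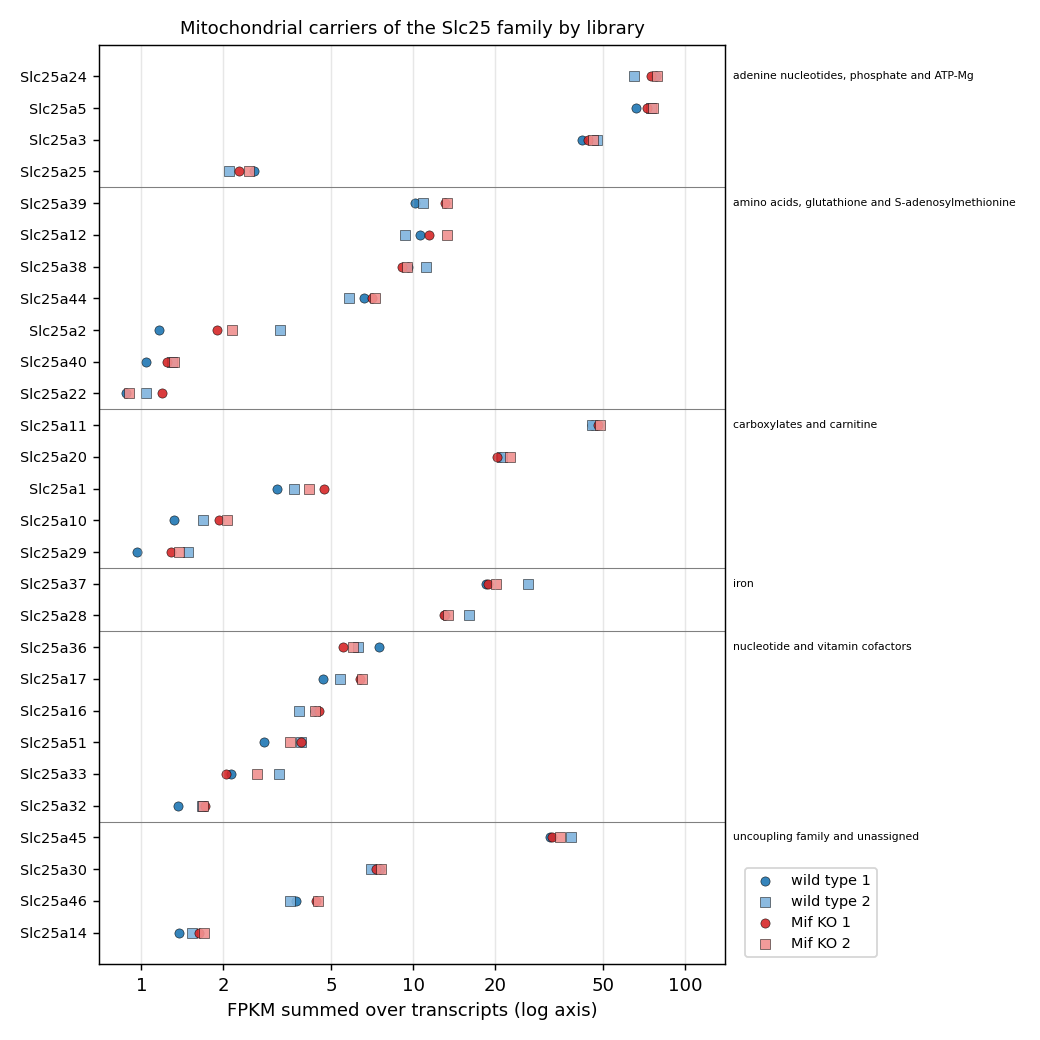
FPKM per library, on a log axis, of 28 of the 29 expressed Slc25 mitochondrial carriers, ordered by cargo. Slc25a24, Slc25a5, Slc25a11 and Slc25a3 stand above 40 FPKM in every library, and the Mif KO points of Slc25a39, Slc25a17, Slc25a46 and Slc25a1 lie to the right of the wild-type points.

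Carriers of adenine nucleotides and phosphate supply oxidative phosphorylation and were the most abundant. Slc25a24, which exchanges ATP-Mg for phosphate, stood at 78.3 and 64.9 against 74.9 and 78.5 FPKM, and Slc25a5, the ADP/ATP translocase, at 66.0 and 74.6 against 72.2 and 75.9. Slc25a3, the phosphate carrier, stood at 41.8 and 47.4 against 44.0 and 45.7, and the other ATP-Mg carrier Slc25a25 at 2.60 and 2.099 against 2.28 and 2.49. All 4 overlapped between genotypes. The summed FPKM of the 4 was 189 in both wild-type libraries against 193 and 203.

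Carriers of carboxylates and carnitine link the citric acid cycle, lipid synthesis and fatty acid oxidation to the cytosol. All 5 genes placed in this group had positive differences, and the cargo of Slc25a29, placed with them, was not examined. The citrate carrier Slc25a1 stood at 3.15 and 3.65 against 4.69 and 4.13 FPKM (log2 difference 0.30, SE 0.11, limma adjusted p = 0.253). Both Mif KO values were above both wild-type values. The oxoglutarate carrier Slc25a11 was close in all libraries, at 45.3 and 45.5 against 47.8 and 48.5 FPKM. The dicarboxylate carrier Slc25a10 stood at 1.32 and 1.69 against 1.94 and 2.06 FPKM, with the groups apart. The acylcarnitine carrier Slc25a20 (20.8 and 21.2 against 20.3 and 22.8 FPKM) and Slc25a29 (0.966 and 1.49 against 1.28 and 1.37 FPKM) overlapped.

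Among carriers of amino acids and glutathione, Slc25a39, the importer of glutathione into mitochondria, stood at 10.1 and 10.9 against 13.1 and 13.3 FPKM summed over transcripts. The groups were apart (log2 difference 0.30, SE 0.08, limma adjusted p = 0.168), but the sign was opposite on coding transcripts, as given below. Its paralogue Slc25a40 stood at 1.04 and 1.30 against 1.24 and 1.32. The aspartate and glutamate carrier Slc25a12 stood at 10.6 and 9.31 against 11.4 and 13.3 FPKM and the branched-chain amino acid carrier Slc25a44 at 6.60 and 5.79 against 7.02 and 7.201, both with the groups apart and neither past the test. On coding transcripts Slc25a12 went the other way, at 8.38 and 7.91 against 7.49 and 6.70 FPKM (log2 difference -0.18). Its transcript annotated for nonsense-mediated decay stood at 0 in both wild-type libraries against 1.80 and 4.82 FPKM. Slc25a38, the glycine carrier of heme synthesis, was the only one of these 7 with a negative summed difference, at 9.59 and 11.2 against 9.06 and 9.46 FPKM. Slc25a2 differed most between wild-type libraries, at 1.16 and 3.22 against 1.898 and 2.15 FPKM, and Slc25a22 stood at 0.881 and 1.04 against 1.20 and 0.899.

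The iron importers mitoferrin 1 and 2 both had lower mean values in Mif KO with overlapping groups. Slc25a37 stood at 18.5 and 26.4 against 18.8 and 20.2 FPKM and Slc25a28 at 13.1 and 15.97 against 12.9 and 13.4. Mitoferrin 1 is also an erythroid gene, and only 21.5% of its FPKM lay on coding transcripts. Wild-type library 2 was highest for both mitoferrins and for the erythroid marker sum, and the part of erythroid cells in these levels was not tested.

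Carriers of cofactors and nucleotides included Slc25a17, which serves peroxisomes with coenzyme A and FAD, at 4.67 and 5.36 against 6.34 and 6.47 FPKM. Both Mif KO libraries were higher (log2 difference 0.30, SE 0.09, limma adjusted p = 0.210). The pyrimidine nucleotide carrier Slc25a36 stood at 7.50 and 6.26 against 5.49 and 6.02 FPKM, with both Mif KO values lower, and its paralogue Slc25a33 at 2.14 and 3.21 against 2.05 and 2.67, overlapping. The NAD carrier Slc25a51, the folate and FAD carrier Slc25a32 and Slc25a16 lay between 1.37 and 4.50 FPKM. In the last subgroup, Slc25a46, an outer membrane protein of mitochondrial dynamics, stood at 3.69 and 3.52 against 4.40 and 4.45 FPKM (log2 difference 0.24, SE 0.08, limma adjusted p = 0.241), the groups being apart. Slc25a45 (31.8 and 38.2 against 32.5 and 34.6 FPKM) and Slc25a30 (7.54 and 6.98 against 7.29 and 7.59 FPKM) overlapped. Slc25a14, an uncoupling protein homologue, stood at 1.38 and 1.54 against 1.64 and 1.69.

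Of 16 tested genes of other mitochondrial membrane proteins 0 passed. Beside 9.46% higher and 4.08% lower coding genes and 8.35% and 9.56% of all genes, 1 was higher (6.25%) and 0 lower at unadjusted p under 0.05. This was Smdt1, a subunit of the calcium uniporter, at 23.4 and 23.98 against 27.8 and 27.0 FPKM (limma adjusted p = 0.247), followed by the import pore gene Tomm40 (2.19 and 2.03 against 2.54 and 2.63 FPKM) and Ghitm (18.3 and 17.8 against 19.6 and 20.5 FPKM). Both Mif KO libraries were above both wild-type libraries in each of these 3.

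Slc35 genes carry nucleotide sugars, and in some cases sulfate donors or ATP, into the Golgi and endoplasmic reticulum. All 5 Slc35a, all 4 Slc35b and both Slc35c genes of the table were members, against 1 of 3 Slc35d, 3 of 4 Slc35e and 2 of 6 Slc35f genes. The highest were Slc35e1 (57.8 and 55.1 against 55.5 and 57.7 FPKM), Slc35a5 (51.8 and 56.2 against 50.9 and 54.3) and Slc35c2 (32.4 and 33.0 against 35.4 and 35.2). The first pair overlapped between genotypes, and in Slc35c2 both Mif KO values were higher. Slc35c1, the GDP-fucose carrier needed for selectin ligands on leukocytes, stood at 11.6 and 11.8 against 13.1 and 12.5 FPKM. Its Mif KO values were both higher by a small margin (log2 difference 0.12, SE 0.07, limma adjusted p = 0.441). The CMP-sialic acid carrier Slc35a1 was low in all libraries, at 1.38 and 1.45 against 1.57 and 1.66 FPKM, and the UDP-galactose carrier Slc35a2 stood at 3.40 and 4.57 against 5.49 and 4.67.

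At unadjusted p under 0.05, 2 of the 17 Slc35 genes had lower (11.8%) and 0 higher values, beside 4.08% and 9.46% of coding genes tested and 9.56% and 8.35% of all genes. Slc35e2 stood at 5.98 and 4.89 against 4.03 and 3.87 FPKM (log2 difference -0.37, SE 0.11, limma adjusted p = 0.200), and Slc35b1, which carries ATP into the endoplasmic reticulum, at 6.67 and 6.11 against 5.22 and 4.99 (log2 difference -0.28, SE 0.08, limma adjusted p = 0.210). In both the groups were apart. The direction of Slc35e2 turned on its highest transcript, which held 68.8% of the FPKM and stood at 3.10 and 2.59 against 3.66 and 3.56 (log2 difference 0.27), while its next transcript, also coding, stood at 2.88 and 2.31 against 0.358 and 0.285. For Slc35b1 the coding transcripts, 50.3% of its FPKM, overlapped at 2.90 and 2.58 against 2.61 and 3.46, and the log2 difference turned to 0.10 on them and to 0.11 on the highest transcript. The remaining 9, Slc35a3, Slc35a4, Slc35b2, Slc35b3, Slc35b4, Slc35d2, Slc35e3, Slc35f5 and Slc35f6, lay between 1.17 and 14.8 FPKM, and the median difference of the 17 was 0.00.

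Inorganic ion carriers set cell volume and pH. The mitochondrial sodium and calcium exchanger Slc8b1 stood at 28.8 and 36.0 against 34.1 and 33.4 FPKM, with the groups overlapping, and the chloride and bicarbonate exchanger Slc4a2 at 17.9 and 19.2 against 20.8 and 21.8 FPKM. Slc4a2 had its groups apart (limma adjusted p = 0.314), and it shares 1141 exon bases with Fastk on the opposite strand.

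Lower values at unadjusted p under 0.05 were found in 2 of 13 ion carriers (15.4%) and higher values in 0, beside 4.08% and 9.46% of coding genes tested and 9.56% and 8.35% of all genes. Slc12a5 (Kcc2), the potassium chloride cotransporter best known from neurons, stood at 3.48 and 4.20 against 2.19 and 2.48 FPKM (log2 difference -0.53, SE 0.11, limma adjusted p = 0.144). It starts 4.95 kb downstream of Mmp9 on the same strand of chromosome 2, and Mmp9, a granule protease gene, stood at 1066 and 997 against 1258 and 1263 FPKM, the opposite direction. Slc12a5 was 52.0% coding by FPKM, and its coding transcripts stood at 1.58 and 2.04 against 1.39 and 1.42. The direction turned on its highest transcript, a coding one at 1.46 and 0.384 against 1.07 and 1.28 FPKM (log2 difference 0.24). Slc9a8, a proton exchanger of the Golgi, stood at 5.64 and 5.48 against 4.44 and 4.58 (log2 difference -0.25, SE 0.08, limma adjusted p = 0.211), with the groups apart. Its endosomal relative Slc9a9 (2.63 and 3.71 against 1.93 and 2.35 FPKM) did not reach that p. Slc12a9 stood at 14.6 and 15.98 against 12.7 and 13.9, and the phosphate carrier Slc20a1, the sulfate carriers Slc26a2 and Slc26a11 and the sodium bicarbonate carrier Slc4a7 lay between 1.34 and 8.92 FPKM.

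Organic ion carriers were led by Slc16a6 (Mct7), a member of the monocarboxylate family that exports ketone bodies from liver, and it had the lowest p of all 130 genes. It stood at 37.9 and 42.9 FPKM in wild type against 28.0 and 28.4 in Mif KO. The groups were apart by more than the spread within either, with a log2 difference of -0.50 (SE 0.09, limma adjusted p = 0.124). Coding transcripts held 90.1% of its FPKM and gave -0.48, but they did not fall alike. The highest transcript, a coding one with 43.3% of the FPKM, overlapped at 15.6 and 14.9 against 13.8 and 15.3. The next, also coding and with 24.6%, stood at 11.03 and 13.5 against 5.33 and 3.90 FPKM. In each remaining transcript both Mif KO values were below both wild-type values. Exons of this gene overlap those of 3 other genes. On the opposite strand, Amz2 shares 1052 bases and overlapped between genotypes at 4.27 and 4.95 against 4.98 and 4.42 FPKM, and Arsg shares 48 bases and stood lower in Mif KO at 13.9 and 11.8 against 9.14 and 10.3. On the same strand, Gm25540 shares 49 bases and also stood lower, at 9.34 and 11.1 against 6.56 and 6.44 FPKM.

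Slc22a15, an organic cation and zwitterion carrier, stood at 36.5 and 35.8 against 27.7 and 30.1 FPKM (log2 difference -0.31, SE 0.08, limma adjusted p = 0.162). Both Mif KO values were lower, while its coding transcripts (45.9% of FPKM) stood closer, at 16.9 and 14.8 against 13.4 and 14.6. The bile acid family orphan Slc10a3 stood at 5.57 and 6.42 against 6.96 and 7.27. Sialin (Slc17a5), the lysosomal sialic acid exporter, stood at 2.00 and 1.57 against 2.30 and 2.25, and the ergothioneine carrier Slc22a4 at 2.78 and 3.20 against 2.86 and 3.23. Slc10a7, Slc16a14 and Slc22a20 lay between 0.903 and 3.11 FPKM.

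Among nucleoside and nucleobase carriers a pair had low p in opposite directions. Slc17a9 (Vnut), which loads ATP into secretory vesicles, stood at 34.9 and 38.5 against 26.3 and 26.9 FPKM (log2 difference -0.45, SE 0.08, limma adjusted p = 0.127). Its coding transcripts went the same way, at 22.0 and 22.5 against 17.4 and 18.1. Slc43a3, a purine nucleobase carrier, stood at 4.10 and 5.68 against 6.94 and 6.63 (log2 difference 0.42, SE 0.15, limma adjusted p = 0.252). The concentrative purine nucleoside importer Slc28a2 was the most abundant of the 4 at 47.3 and 56.8 against 50.8 and 47.6, with overlapping groups, and the lysosomal nucleoside carrier Slc29a3 stood at 2.88 and 2.97 against 2.70 and 2.98.

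With the major glucose carriers set aside, the sugar class was low. Slc37a3, of the sugar phosphate exchanger family, was highest at 17.9 and 16.4 against 12.4 and 13.5 FPKM. Both Mif KO values were lower (log2 difference -0.38, SE 0.09, limma adjusted p = 0.158), on coding transcripts too (14.2 and 13.0 against 9.79 and 11.02). Slc37a1 stood at 6.39 and 6.42 against 7.21 and 6.91. The glucose 6-phosphate carrier of the endoplasmic reticulum Slc37a4, whose loss impairs neutrophils in glycogen storage disease, stood at 1.57 and 1.41 against 1.67 and 1.53. Slc45a4 (5.66 and 7.58 against 5.93 and 6.57 FPKM), the urate carrier Slc2a9, Slc37a2, Slc50a1 and Slc5a11 did not reach an unadjusted p of 0.05.

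Carriers of lipids, choline and vitamins held 0 genes with an unadjusted p under 0.05 among 7. The shares were 8.35% higher and 9.56% lower of all genes tested, and 9.46% and 4.08% of coding genes. Slc27a4, which activates and takes up fatty acids, stood at 93.1 and 77.4 FPKM in wild type against 79.7 in both Mif KO libraries. Slc44a2, the choline carrier that bears a neutrophil alloantigen in humans, stood at 52.4 and 61.9 against 58.8 and 61.3, and Slc44a1 at 8.78 and 11.1 against 8.53 and 9.64. All 3 overlapped between genotypes. The riboflavin carrier Slc52a2, the acetyl-CoA carrier Slc33a1 and the ascorbate carrier Slc23a2 lay between 1.26 and 2.54 FPKM. Slc27a3 passed the level through wild-type library 2, at 0.842 and 2.14 against 0.894 and 0.934.

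The genes with an Slc name that are not transporters were led by Slc9a3r1 (Nherf1), a PDZ scaffold that ties membrane proteins to the actin linker ezrin. It was the second most abundant gene of the set, at 88.0 and 92.5 against 106 and 102 FPKM, with both Mif KO values higher (log2 difference 0.20, SE 0.07, limma adjusted p = 0.243). Slc4a1ap (kanadaptin) stood at 6.15 in both wild-type libraries against 6.70 and 6.73, and Slc7a6os at 1.91 and 3.25 against 2.66 and 2.55. Slc9a3r2 and the pseudogene Slc2a4rg-ps lay between 1.92 and 3.86 FPKM.

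A gene's FPKM is a sum over annotated transcripts, and many of these are not protein-coding. GENCODE M21 annotates 129 of the 130 genes as coding. In 9 of these (6.98%, beside 5.17% of all coding genes tested) the highest transcript was not annotated as protein-coding. Exons of 12 members overlap those of another tested gene, 4 on the same and 10 on the opposite strand, so their fragments may have been shared. Less than 50% of the FPKM was on coding transcripts in 10 members, among them Slc39a7 (12.7%), Slc11a1 (19.9%), Slc25a37 (21.5%) and Slc7a11 (25.7%).

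**Figure D4:**
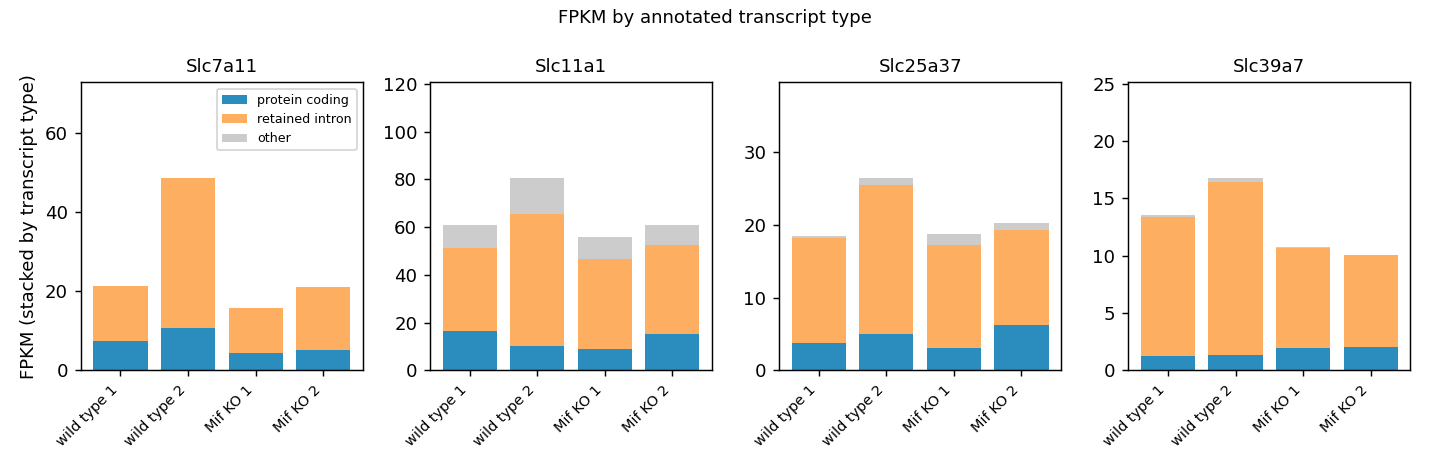
FPKM per library, stacked by annotated transcript type, of 4 solute carrier genes whose highest transcript is a retained-intron one. In Slc39a7 the retained-intron part lies between 12.2 and 15.1 FPKM in wild type and between 8.02 and 8.68 in Mif KO, while the coding part goes from 1.20 and 1.33 to 1.97 and 1.99.

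Retained-intron transcripts had lower values in Mif KO across the set. Of 31 members in which such transcripts averaged 1 FPKM or more in a genotype, 29 had a negative difference, with a median of -0.36, and in 21 (67.7%) both Mif KO libraries were below both wild-type libraries. The coding transcripts of the same 31 genes had a median of 0.03, and both Mif KO libraries were below in 9 (29.0%) and above in 7 (22.6%). Over 2274 coding genes with retained-intron transcripts at that level, those transcripts were negative in 1995, with a median of -0.32, and 62.3% were below. Coding transcripts of the 2274 genes had a median of 0.04, with 15.3% below and 33.9% above. These shares were not tested against each other. Of the 10 members with lower summed values at unadjusted p under 0.05, 7 were among the 31, and of the 10 with higher values 2. Genotype, depth and lane differed together, so their parts in the lower retained-intron values cannot be told apart. On coding transcripts alone, 13 members had higher and 6 lower values at unadjusted p under 0.05 of 125 tested, beside 13.0% and 3.40% of 8197 genes, 0 passing the adjusted threshold.

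**Figure D5:**
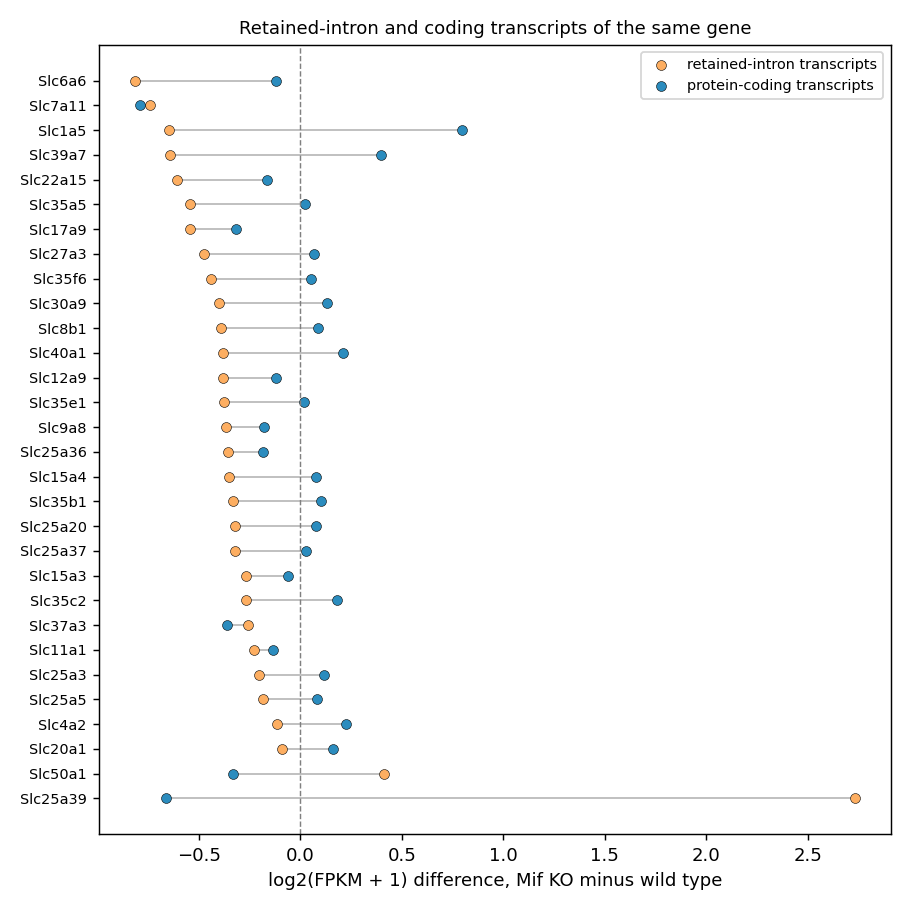
Log2 difference in FPKM + 1, Mif KO minus wild type, of retained-intron (orange) and protein-coding (blue) transcripts of the same gene, for 30 of the 31 solute carriers with at least 1 FPKM on retained-intron transcripts. The orange points lie left of 0 in 28 of the genes drawn, and Slc25a39 and Slc50a1 are the exceptions.

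Slc39a7 and Slc25a39 were among the genes, with Slc25a12 and others given above, whose sign of difference depended on the transcripts. For Slc39a7 the coding transcripts gave a log2 difference of 0.40 (SE 0.08, limma adjusted p = 0.186) against -0.50 for the sum. The readthrough gene Gm20427 shares 2084 exon bases with Slc39a7 on the same strand of chromosome 17 and stood at 0.114 and 0.239 FPKM in wild type against 3.99 and 4.80 in Mif KO. It passed the test (log2 difference 2.19, SE 0.13, limma adjusted p = 0.0226), and with its FPKM added to that of Slc39a7 the difference was -0.04. For Slc25a39 the coding transcripts stood at 9.96 and 10.8 against 6.77 and 5.63 FPKM (log2 difference -0.66, SE 0.11, limma adjusted p = 0.160). A retained-intron transcript of 11 exons, close to the coding ones in length, stood at 0.0139 FPKM and at 0 in wild type and at 5.98 and 7.24 in Mif KO. How fragments were divided between these transcripts was not tested.

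Carriers named outside the Slc scheme, such as mitochondrial pyruvate carriers, sideroflexins and Mfsd and Spns genes, gave the same count of 0 past the threshold among 31 tested. At unadjusted p under 0.05, 9.46% of coding genes tested were higher and 4.08% lower, beside 8.35% and 9.56% of all genes. Of the 31 carriers, 1 had higher and 3 lower values (3.23% and 9.68%). The lower ones were Spns3, of the sphingolipid transporter family (2.43 and 2.75 against 0.741 and 1.04 FPKM, limma adjusted p = 0.0932), the sideroflexin gene Sfxn5 (75.0 and 89.0 against 49.99 and 56.6 FPKM, limma adjusted p = 0.127) and the lysosomal cystine exporter gene Ctns (9.04 and 8.34 against 5.86 and 6.50 FPKM, limma adjusted p = 0.140). In each of the 3 the groups were apart. The uncoupling protein gene Ucp2, a mitochondrial carrier with another name, exceeded every member of the Slc25 class at 137 and 160 against 162 and 166 FPKM (adjusted p = 0.472 by limma).

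ATP-driven ABC transporters gave 0 past the threshold among 12 tested. At unadjusted p under 0.05, 1 was higher and 1 lower (8.33% each way). The shares were 8.35% and 9.56% of all genes tested and 9.46% and 4.08% of coding genes. Abcg1, a cholesterol exporter, stood at 14.4 and 16.5 against 21.1 and 22.0 FPKM (limma adjusted p = 0.138) and Abcc5 at 41.7 and 38.9 against 30.9 and 34.0 (limma adjusted p = 0.189). Both had their groups apart.

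The authors' deposited table gives a p-value for 667 of the 701 transcripts of these genes. There the q-value was under 0.05 for 0 of them, the lowest being 0.0565, and 74 (11.1%) had a p-value under 0.05, the same share as over all its transcripts (11.1%). Of the 74, 31 had a fold above 1 and 43 below in the authors' deposited table.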

How the data were processed

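The data are 1 table of FPKM per transcript with a column per library, deposited by the authors, per the file headers, from 2 wild-type and 2 Mif KO libraries of sorted neutrophils (stranded total RNA, 100 bp paired ends, per the labels' protocols). The submitters' processing notes name StringTie 2.1.4, HISAT2 2.1.0, SAMtools 1.9, R 3.6.1 and the build GRCm38 without roles. Not given in the sources used here are the annotation release and the strand setting, and overlapping genes may share fragments. The same deposited table gives the authors' fold ratio, p-value and q-value (p-value scale) per transcript, which were only described. The files give no counts, so depth is known only in relative terms and no counting interval is given.

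FPKM was summed per gene identifier and tested as log2(FPKM + 1) in limma 3.58.1 (R 4.3.3, trended moderation, 2 against 2, two-sided, Benjamini-Hochberg over the 10221 genes whose mean came to 1 FPKM or more in a genotype). On simulated data, with the same spread in both genotypes, the fit recovered 23.6% of 1.5-fold, 63.2% of 2-fold and 88.4% of 4-fold changes. A count of 0 past the threshold therefore does not exclude changes of 1.5-fold to 2-fold. Transcript types, exons and coordinates came from GENCODE M21 (GRCm38), which held 114332 of the 115220 transcripts and all 130 genes; promoter windows came from RefSeq (GRCm38.p6). Values in every library are given, per substrate class, for up to 3 genes per direction with the lowest unadjusted p under 0.05 and separate groups, for the 3 highest genes, for the genes nearest the level, and for up to 3 genes of lowest p from each list of other genes. Other genes were named after their values were seen, and a few genes are counted in the totals but not reported here. The members, classes and lists were chosen with earlier results of these data known; Slc2a4rg-ps and Slc4a1ap were classed after the files were seen. Replicate numbers in the labels state no pairing, so the fit without a block is the one reported. Alternatives were another pseudocount, filters, scalings, the replicate block, single transcripts, a GC and length correction, each library left out and, chosen after seeing the data, coding transcripts only and Slc39a7 with Gm20427.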

Additional observations from a re-analysis of the deposited data

How the results depend on the processing

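The count of 0 solute carriers past the threshold held under every alternative with all 4 libraries, while leaving out 1 library gave 0 to 39. The members at unadjusted p under 0.05 ranged over 3 to 58 with 1 library left out, those with higher values over 0 to 26, those with lower values over 3 to 36, and the median difference over -0.0211 to 0.0478. With the replicate block, 4 had higher values. The correlation of same-numbered replicates' deviations was 0.01 over all genes and 0.27 over the members, so the numbers were not taken as pairs, and the block moved the genes past the threshold from 35 to 34. The highest transcript alone gave 12 members at unadjusted p under 0.05, 5 of them lower. GC and length correction gave 18 lower. Coding transcripts gave 6 lower of 125 tested, beside 3.40% of all genes tested on them, and a median of 0.0753. For the other alternatives and the libraries left out, no share over all genes was set beside these counts. They are therefore not read as results about solute carriers. The 22 genes compared were the members with an unadjusted p under 0.05 in these same data, with Slc7a11 and Slc40a1. With all 4 libraries, 210 of 217 of their values kept their sign and 0 passed, the lowest limma adjusted p being 0.0793. Leaving out 1 library kept the sign in 88 of 88. For all but Slc40a1 this was fixed in advance, both Mif KO values lying on 1 side of both wild-type values. The sign turned on the highest transcript for Slc12a5 (0.24), Slc25a39 (-1.02), Slc35e2 (0.27) and Slc35b1 (0.11), and on coding transcripts for Slc39a7 (0.40), Slc25a39 (-0.66) and Slc35b1 (0.10). The cause was not tested. Over all genes the count past the threshold, 35, was 0 without a filter, 16 with a filter of 5 FPKM or with median-of-ratios scaling, 21 with quantile normalization, 17 with GC and length correction and 15 on coding transcripts. Relative depth differed with genotype, so the precision of low genes was not equal between the groups.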
